A study of Mus musculus with 8 samples.

Results

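The 27037 regions described here are stretches of open chromatin to which no gene was assigned. Peaks of all 8 ATAC-seq libraries were merged wherever they overlapped by at least 1 bp, which gave 87144 regions. A region was kept when every peak in it had an empty gene list, meaning no gene body within the authors' limit of 10 kb, and overlapped no CpG island. The kept regions were 31.0% of all regions and are called unassigned regions below. The remaining 60107 are called other regions. Among the latter, 715 had no assigned gene but held a CpG island. The label intergenic held only in part. Against the GENCODE M21 annotation, 5206 unassigned regions (19.3%) overlapped a gene of any type. Of these, 1651 overlapped a protein-coding gene and 2986 a long non-coding RNA gene. In all 10475 (38.7%) overlapped or lay within 10 kb of a GENCODE gene, and 16562 (61.3%) did not.

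ATAC-seq uses a transposase that inserts adapters where DNA is not packed away. Germ cells were sorted by eGFP from testes of PIWIL2-eGFP mice, whose transgene is driven by the Piwil2 promoter and is active in germ cells in general, so it does not by itself separate spermatogonial stages. All mice, the 0 h mice included, were fed WIN 18,446 for 7 days from 2 dpp at 100 mg/kg, which blocks the synthesis of retinoic acid (RA). The 0 h mice (9 dpp) received no RA, whereas the others received 200 µg RA at 9 dpp and were collected 18, 48 or 120 h post-RA, at 9.75, 11 and 14 dpp. Both testes of 1 mouse made a library, and 2 mice were used per timepoint. In such bulk samples, fewer cells with an open site and a less open site in each cell cannot be told apart. The labels give the strain as derived from C57BL/6 x 129s4/SvJae, and the methods as C57BL/6 x SJL. Peaks were called in each library, and signal was normalised by the authors to the same number of tags. The coverage at the summit (the summit value, used here as height) is therefore on a common tag scale as deposited. Equal tag numbers do not make the share of tags lying in peaks equal between libraries, and that share was not examined here. The lowest summit value called in any library was 24 or 25, so a region without a peak has an unknown height below about that level.

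Spermatogonia begin as an undifferentiated population that holds the stem cells. RA commits them to differentiation, marked by Kit and Stra8, and to a fixed series of divisions before meiosis. Open chromatin far from gene starts commonly marks enhancers, insulators bound by CTCF, or repeats. Such distal sites differ more between cell types than promoters generally do. DMRT1, a DNA-binding protein of germ and Sertoli cells, and NF-Y, which binds CCAAT boxes, are among the factors whose short motifs can be read in such sequence.

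The sequences below are 300 bases of GRCm38 (mm10), plus strand, centred on the highest summit of a region, and each region carries the name of the protein-coding gene whose start is nearest. Capitals mark ACANTGT, the core of the DMRT1 motif, or CCAATCA, an NF-Y motif (TGATTGG on the other strand). The first window is from a region among those with the highest median summit value that were open in every library.
Alkbh8 region (chr9:3258699-3258998): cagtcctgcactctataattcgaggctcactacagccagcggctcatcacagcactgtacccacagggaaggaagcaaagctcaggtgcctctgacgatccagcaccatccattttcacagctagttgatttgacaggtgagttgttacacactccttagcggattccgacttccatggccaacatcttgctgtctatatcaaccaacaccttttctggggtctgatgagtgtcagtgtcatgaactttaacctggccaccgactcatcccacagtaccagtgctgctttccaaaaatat

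The next pair had the strongest peaks of those found in both 0 h libraries and in no later library. The Plod2 window holds ACACTGT, whereas the other holds neither motif.
Plod2 region (chr9:92930603-92930902): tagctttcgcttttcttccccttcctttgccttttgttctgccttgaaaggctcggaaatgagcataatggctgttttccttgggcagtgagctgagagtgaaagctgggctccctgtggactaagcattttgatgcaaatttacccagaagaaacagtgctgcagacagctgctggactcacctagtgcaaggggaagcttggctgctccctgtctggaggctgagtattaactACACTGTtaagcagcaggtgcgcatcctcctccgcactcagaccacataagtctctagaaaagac
5930422O12Rik region (chr8:33443627-33443926): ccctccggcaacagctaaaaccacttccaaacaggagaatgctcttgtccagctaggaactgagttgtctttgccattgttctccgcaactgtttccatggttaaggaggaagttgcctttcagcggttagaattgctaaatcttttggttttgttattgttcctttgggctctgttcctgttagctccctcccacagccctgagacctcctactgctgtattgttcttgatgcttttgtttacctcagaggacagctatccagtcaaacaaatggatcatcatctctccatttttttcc

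Of the following 3 windows, the Frmd8 and Ptpru regions had the strongest peaks found in both 120 h libraries alone. The Hpd region was chosen after its values were seen, as a strong region of that pattern with a DMRT1 match.
Frmd8 region (chr19:5823563-5823862): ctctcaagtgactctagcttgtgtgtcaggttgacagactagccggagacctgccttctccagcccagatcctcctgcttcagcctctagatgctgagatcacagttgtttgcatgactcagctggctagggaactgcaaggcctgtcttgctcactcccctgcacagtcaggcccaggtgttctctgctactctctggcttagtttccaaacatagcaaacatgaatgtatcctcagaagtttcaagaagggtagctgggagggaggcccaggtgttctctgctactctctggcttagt
Ptpru region (chr4:131625387-131625686): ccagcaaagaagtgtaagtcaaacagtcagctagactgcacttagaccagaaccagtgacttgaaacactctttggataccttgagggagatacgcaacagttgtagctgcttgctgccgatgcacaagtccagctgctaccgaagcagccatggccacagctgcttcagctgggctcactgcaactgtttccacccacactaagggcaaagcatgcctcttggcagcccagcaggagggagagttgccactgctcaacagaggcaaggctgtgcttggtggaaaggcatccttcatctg
Hpd region (chr5:123200107-123200406): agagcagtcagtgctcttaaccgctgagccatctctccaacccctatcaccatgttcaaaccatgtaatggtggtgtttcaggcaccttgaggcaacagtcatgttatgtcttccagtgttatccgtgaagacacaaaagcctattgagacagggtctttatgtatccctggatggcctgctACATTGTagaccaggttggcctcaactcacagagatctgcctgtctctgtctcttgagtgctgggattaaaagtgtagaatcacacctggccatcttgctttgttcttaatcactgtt

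The Dio3 region had the largest rise and the Mtap region the largest fall at 120 h against 0 h, relative to the median region.
Dio3 region (chr12:110202267-110202566): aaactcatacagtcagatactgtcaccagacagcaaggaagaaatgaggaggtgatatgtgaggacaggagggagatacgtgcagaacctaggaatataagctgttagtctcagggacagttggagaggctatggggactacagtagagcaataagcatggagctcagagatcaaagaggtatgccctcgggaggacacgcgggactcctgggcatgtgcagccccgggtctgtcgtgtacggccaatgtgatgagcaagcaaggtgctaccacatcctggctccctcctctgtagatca
Mtap region (chr4:89014603-89014902): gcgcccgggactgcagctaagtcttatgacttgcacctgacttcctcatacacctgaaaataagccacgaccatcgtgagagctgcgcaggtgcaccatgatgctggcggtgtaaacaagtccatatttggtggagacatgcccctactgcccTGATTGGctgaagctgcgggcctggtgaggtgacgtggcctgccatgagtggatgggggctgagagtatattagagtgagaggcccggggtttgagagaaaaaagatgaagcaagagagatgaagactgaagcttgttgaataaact

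The last pair belong to a group of 181 unassigned regions with similar sequence, described further below. Over 303 aligned bases they were 77.6% identical, and both hold CCAATCA.
Olfr987 region (chr2:85266795-85267094): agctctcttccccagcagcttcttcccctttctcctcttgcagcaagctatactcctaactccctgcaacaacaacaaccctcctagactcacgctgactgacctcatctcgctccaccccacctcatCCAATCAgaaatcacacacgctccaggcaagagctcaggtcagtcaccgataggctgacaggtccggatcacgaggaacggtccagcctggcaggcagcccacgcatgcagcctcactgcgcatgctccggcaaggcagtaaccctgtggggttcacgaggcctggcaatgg
Lao1 region (chr4:118997163-118997462): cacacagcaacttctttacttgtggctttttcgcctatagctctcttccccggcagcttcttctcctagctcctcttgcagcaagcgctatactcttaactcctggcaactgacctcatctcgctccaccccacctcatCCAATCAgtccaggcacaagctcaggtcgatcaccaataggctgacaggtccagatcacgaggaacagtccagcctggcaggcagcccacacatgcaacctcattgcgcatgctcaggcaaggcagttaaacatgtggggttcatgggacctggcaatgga

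The rule, with no assigned gene within 10 kb and no CpG island, by itself favours larger distances and lower GC. Unassigned regions lay farther from protein-coding gene starts and were poorer in GC than the other regions. Their median distance to the nearest protein-coding gene start was 66.9 kb, with quartiles of 28.6 and 169 kb, against 8.46 kb for other regions. Median width was 384 bp against 451 bp, and median GC content 49.5% against 53.1%. Bases masked as repeats in the reference made up a median of 11.9% of an unassigned region and 7.92% of another region. They lay near 6617 different genes, with Ajap1 (55 regions), the developmental transcription factor Tbx3 (51), Atp23 (47) and Zfhx3 (45) having the most. On the autosomes there were between 7.87 (chromosome 7) and 13.7 (chromosome 13) unassigned regions per Mb. The X chromosome, present in a single copy in male cells, had 2.47 per Mb, although unassigned regions were 26.0% of all regions on X, within the autosomal range of 22.4% to 39.4%.

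To check the sorted cells, peaks within 1000 bp of the starts of marker genes were counted. Of 8 germ cell markers, 7 had such a peak in all 8 libraries, and Tdrd1, a piRNA pathway gene, had one in 3. Of 7 Leydig cell markers 6 had none in any library. Among them Hsd3b1, like the blood cell marker Adgre1, is not named among the deposited peaks at all. For these a missing peak and a different gene name cannot be told apart. Fewer Sertoli cell markers had a peak later, with 6 of 7 in each 0 h library and 2 or 3 of 7 in each later library. Of 8 markers of peritubular, endothelial and blood cells, 4 and 3 had a peak in the 0 h libraries and 1 or 2 in each later library. The Sertoli cell marker Wt1 and the peritubular marker Acta2 had a peak in all 8 libraries, and Myh11 in 7. The 0 h libraries also held more peaks in all, 72215 and 69089 against 24643 to 39551 later. The marker counts were not adjusted for this. A peak at a start is not a measure of expression. The part of other cells in the results below was not tested.

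The deposited peaks in unassigned regions were most numerous before RA. The number of peaks in unassigned regions was 22279 and 20444 in the 0 h libraries, 5803 and 7150 by 18 h, then 4377 and 6714 by 48 h and finally 8088 and 3646 by 120 h. Both 0 h libraries lay above all later ones, and the widest gap between replicates was at 120 h. The mean was 21362 ± 1298 (SD, n = 2) at 0 h and 5963 ± 1697 (SD, n = 6) later, a ratio of 3.58. With 2 against 6 libraries the exact two-sided permutation test cannot go below p = 0.0714, which is the value it gave (0.0952 after Benjamini-Hochberg adjustment over 4 tests). The size of this ratio depended on how many peaks each library had in all, which ranged from 24643 to 72215. With the 24643 highest peaks of every library the ratio was 1.12 (exact permutation p = 0.143), and the 0 h libraries no longer both lay above the later ones.

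**Figure D1:**
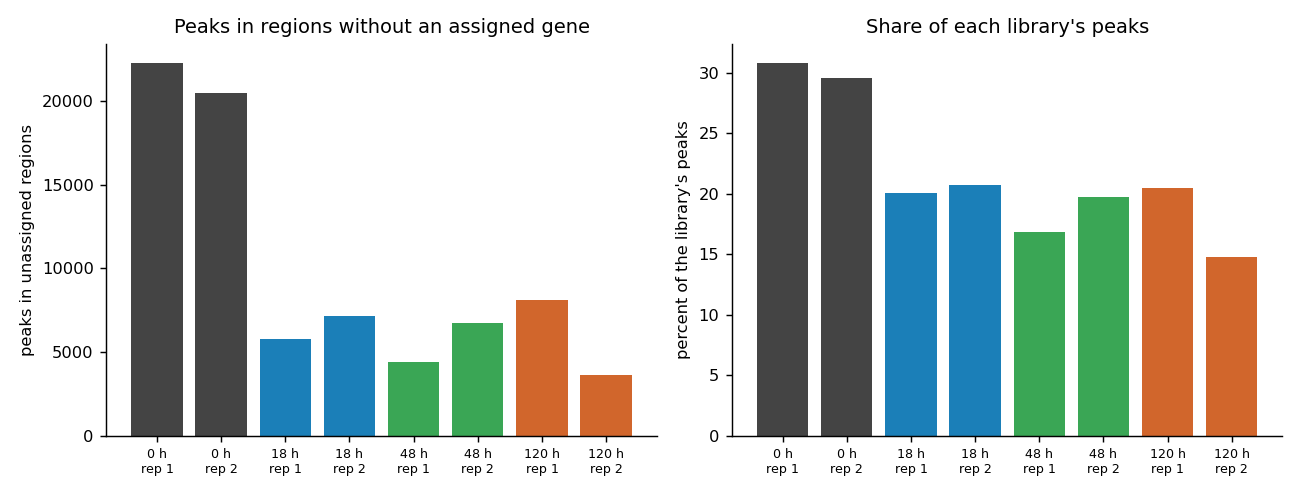
Left, number of peaks in regions without an assigned gene in each of the 8 libraries. Right, the same peaks as a percent of all peaks of the library. Bars are single libraries, coloured by timepoint, and the 2 bars at 0 h are the highest in both panels (29.6% and 30.9% against 14.8% to 20.8% later).

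The share of the deposited peaks that lay in unassigned regions was also highest before RA. Unassigned regions took 30.9% and 29.6% of all peaks at 0 h, 20.1% and 20.8% by 18 h, then 16.9% and 19.8% by 48 h and finally 20.4% and 14.8% by 120 h. No later library reached the 0 h share among the deposited peaks. The mean share was 30.2% ± 0.891 (SD, n = 2) at 0 h and 18.8% ± 2.41 (SD, n = 6) later, a difference of 11.4 percentage points (exact permutation p = 0.0714, the smallest possible, adjusted 0.0952). With the 24643 highest peaks of every library, the difference was 1.99 points (exact permutation p = 0.143). Among the later timepoints, the 48 h and 120 h libraries overlapped. Values on either side of the 10 kb limit were close. Regions whose peaks all lay 9 to 10 kb upstream of a gene start, just outside the rule, were found at 0 h only in 37.1% of 480 cases. Unassigned regions with a gene start 10 to 11 kb away gave 36.9% of 347.

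A region counted as open at a timepoint if each of its replicates had a peak there. By this count 17849 unassigned regions (66.0%) were open at 1 or more timepoints, and the remaining 9188 had a peak in both libraries of no timepoint. Regions at 0 h only numbered 11708, which is 65.6% of the 17849, against 43.3% among other regions. In 7953 of them no later library had a peak, and in 2358 a single later library did. Regions at all 4 timepoints numbered 1881 (10.5%), against 31.4% among other regions. Regions still open at 18 h and then lost numbered 1232, those lost only by 120 h 1156, and those at 0 and 120 h but at neither time between 449. Only 369 regions were found at 120 h alone, of which 199 had no peak in any other library, and 65 and 56 were found at 18 h or 48 h alone. With the same number of highest peaks in every library, 768 regions were at 0 h only and 1290 at all 4 timepoints, so that the order of these counts turned. When 1 library stood for 120 h, the 369 became 593 without replicate 1 and 1605 without replicate 2.

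**Figure D2:**
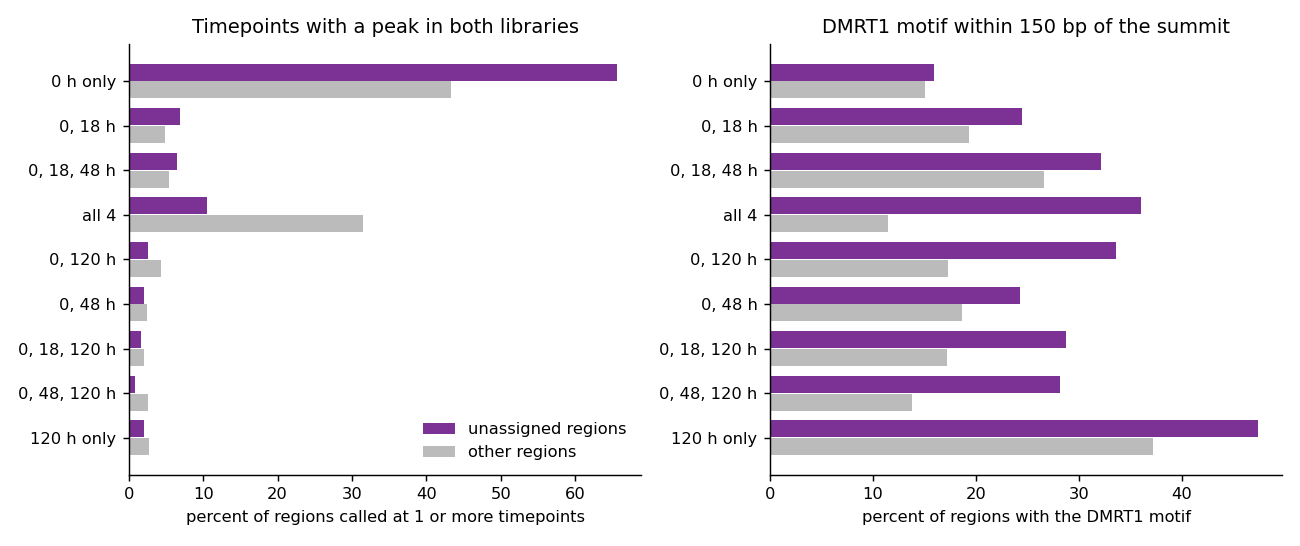
Left, timepoints at which both libraries had a peak, as a percent of regions called at 1 or more timepoints, for unassigned (purple) and other regions (grey). Right, percent of the regions of each kind with the DMRT1 motif within 150 bp of the highest summit. Unassigned regions are more often at 0 h only (65.6% against 43.3%), and those at 120 h only most often hold the motif (47.4%).

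Unassigned regions were lower at 0 h than other regions, and at matched 0 h height the difference in later peaks was smaller. Among the regions with a peak in both 0 h libraries, 17246 unassigned regions had median summit values of 69 and 70 in the 2 libraries, and 41817 other regions 99 and 109. A peak was still called in 30.6% and 38.1% of the unassigned regions in the 18 h libraries, then 23.6% and 34.6% by 48 h and finally 36.2% and 16.8% by 120 h. Those shares were between 18.5 and 26.2 percentage points below the shares of other regions. All these regions were then split into 10 classes of equal size by 0 h height. Within classes the mean difference was 0.603 and -1.31 points in the 18 h libraries, -5.55 and -3.30 at 48 h, and -7.12 and -11.0 at 120 h. When regions at gene starts were left out of the comparison, it ranged from 1.83 points at 18 h to -4.68 at 120 h. At matched 0 h height the shares at 18 h lay close together, and in both 120 h libraries the unassigned share was lower. These shares are a description of regions that share libraries, and no test was made.

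**Figure D3:**
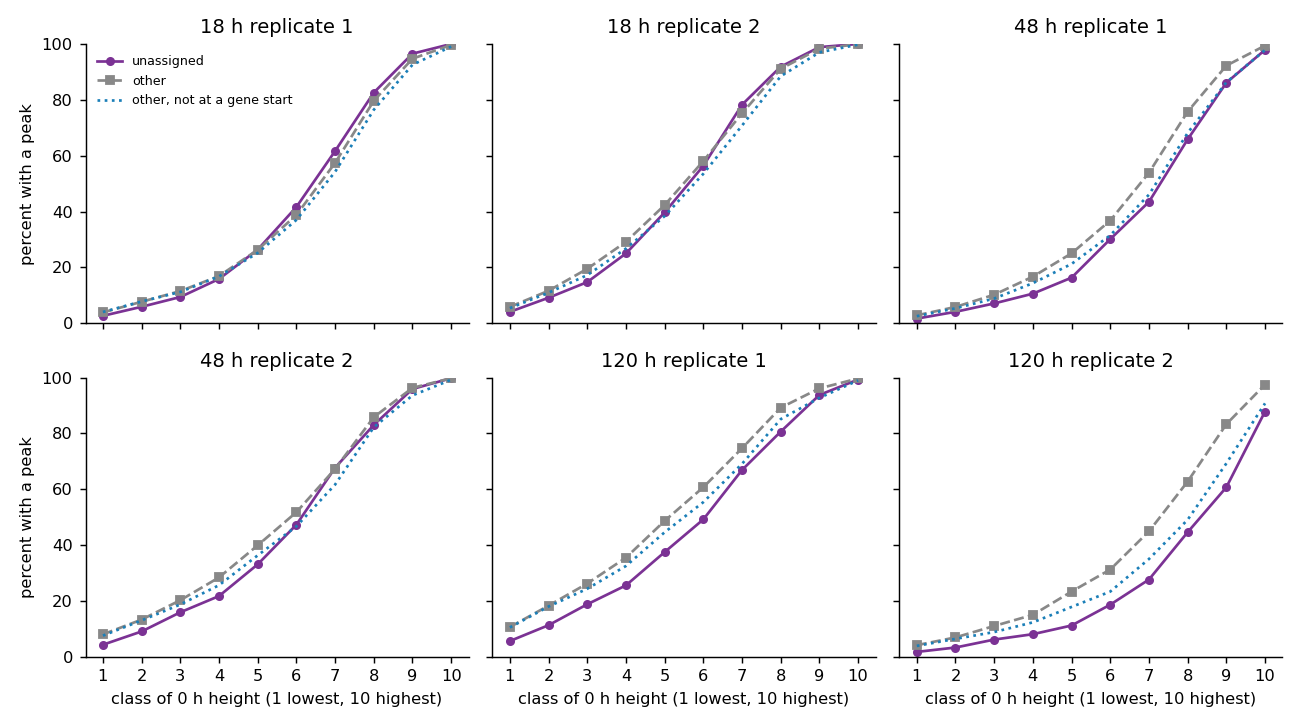
Percent of regions with a peak in each later library, by class of their 0 h height (10 classes of equal size, 1 lowest), for unassigned regions (purple), other regions (grey) and other regions not at a gene start (blue). The curves nearly coincide at 18 h and lie apart in 120 h replicate 2, where the difference reaches -22.6 points against other regions.

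Later peaks were rarer with distance from genes among the unassigned regions, and among other regions too. Of the unassigned regions called at 0 h and 10 to 25 kb from a protein-coding gene start, 14.4% were open at all 4 timepoints and 60.8% at 0 h only. At 100 to 250 kb the shares were 9.68% and 71.6%. Beyond 500 kb they were 3.60% and 86.2% of 916 regions. In other regions the shares were 17.8% and 56.8% at 10 to 25 kb and 12.8% and 64.5% at 100 to 250 kb. Beyond 500 kb they were 6.49% and 79.2% of 154 other regions. Median height of the unassigned regions in 0 h replicate 1 also fell with distance, from 74 at 10 to 25 kb to 58 beyond 500 kb. Unassigned regions also lay in chains. With gaps under 10 kb, 14998 of them (55.5%) joined into 5543 chains, 429 of which held 5 or more. The longest 2 had 17 regions each, at chr4:153630895-153692875 beyond Ajap1 and at chr8:47739522-47799811 near Cldn24, a claudin gene. In the Ajap1 chain 13 and 12 regions had a peak in the 0 h libraries, 5 and 7 by 18 h, then 3 and 4 by 48 h and finally 8 and 4 by 120 h. A chain of 14 near Gpx5, a gene of the epididymis, lay at chr13:21210271-21268587 and had 14 and 13 peaks at 0 h but 1 and 3 at 48 h.

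Heights could be compared where every library had a peak, in 15536 regions, of which 1881 (12.1%) were unassigned. These are the most persistent regions and not typical of the rest. As deposited, 1588 of the 1881 unassigned regions were lower at 18 h than at 0 h (84.4%, against 92.3% of all regions tested) and 20 higher (0.296% of all). At 48 h 1622 were lower (93.3% of all) and 24 higher (0.328%). At 120 h 1263 were lower (67.1%, against 44.8% of all) and 45 higher (0.882%). Between 48 and 120 h 172 rose (9.14%, against 23.7% of all) and 9 fell (0.18% of all). The 1263 became 733 without 120 h replicate 2, and the 172 ranged from 6 without 48 h replicate 1 to 690 without 120 h replicate 2. Without 120 h replicate 1 the direction turned, with 53 lower and 25 higher. All calls are at an adjusted p under 0.05 in limma. As deposited, the standard error was 0.372 for the median region and for every named region fitted. Limma thus gave these regions a common spread, which includes differences in overall height between libraries. A call as deposited therefore follows the size of the change and not the spread of the single region. The median region of all those tested changed by -1.23 on the log2 scale at 18 h, -1.36 at 48 h and -0.75 at 120 h against 0 h, so changes below are given relative to the median region of each library.

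Relative to the median region, unassigned regions went both ways early and mostly down by 120 h. At 18 h 68 had risen (3.62%, against 1.25% of all regions tested) and 13 had fallen (0.691%, against 0.225%). At 48 h 146 had risen (7.76%, against 3.26%) and 92 had fallen (4.89%, against 1.51%). At 120 h 600 were lower than at 0 h (31.9%, against 15.8%) and 254 higher (13.5%, against 23%). The median change at 120 h was -0.31 in unassigned regions and 0.18 in other regions on the log2 scale. From 48 to 120 h 255 fell (13.6%, against 7.45%) and 68 rose (3.62%, against 9.47%), but these counts rested on single libraries. Without 48 h replicate 2 limma called 0 either way (318 lower and 111 higher at an unadjusted p under 0.05), without 48 h replicate 1 it called 45 lower and 13 higher, and without 120 h replicate 2 43 and 14. Without 120 h replicate 1 36 rose. The 600 lower at 120 h became 349 without 120 h replicate 2 and 393 without 0 h replicate 1. Under quantile normalization the balance at 48 h turned, with 123 lower and 100 higher. At 48 h the 92 that fell became 11 to 41 and the 146 that rose 60 to 86 without 48 h replicate 1 or 2 or 1 of the 0 h libraries. At 18 h the 68 became 19 without 18 h replicate 1 and 41 without 0 h replicate 2, and the 13 became 2, 5 and 7 without 18 h replicate 1, 18 h replicate 2 and 0 h replicate 1.

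Within libraries, the median log2 height of shared unassigned regions was below that of shared other regions throughout. The difference was -0.31 and -0.50 before RA, -0.31 and -0.49 by 18 h, then -0.55 and -0.40 by 48 h and finally -0.64 and -0.98 by 120 h. The 120 h libraries had the widest differences, and the 0 h and 18 h libraries overlapped. For 0 h against all later libraries the means were -0.41 ± 0.13 (SD, n = 2) and -0.56 ± 0.23 (SD, n = 6), within the spread (exact permutation p = 0.500, adjusted 0.500).

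Unassigned regions with the highest median summit values took different courses. The Alkbh8 region (chr9:3258674-3259085), 76.3 kb from the start of this gene, measured 706 and 848 before RA at its summit, 710 and 645 by 18 h, then 537 and 797 by 48 h and finally 644 and 651 by 120 h. Values of the timepoints overlapped, and the fitted change at 120 h against 0 h was -0.26 as deposited. Relative to the falling median region it was higher by 1.15 ± 0.25 at 48 h (SE, limma adjusted p = 0.0206), and the value at 120 h was 0.63 ± 0.25 (limma adjusted p = 0.0621). By contrast, the Zfat region at chr15:68362972-68363771, which overlaps the non-coding gene Gm20732 and has a GC content of 67.4%, went from 671 and 857 before RA to 328 and 474 by 18 h, then 286 and 307 by 48 h, and back up to 778 and 526 by 120 h. The Cdon region (chr9:35359679-35360583) had the same course as deposited, from 852 and 742 before RA to 197 and 307 by 48 h and 744 and 444 by 120 h. Relative to the median region, the Zfat change was 0.32 at 18 h and 0.04 at 48 h, and the Cdon change 0.09 and -0.30. None of these passed the threshold (limma adjusted p from 0.512 to 0.946). At 120 h the relative change was 0.65 for Zfat (limma adjusted p = 0.0203) and 0.42 for Cdon (0.150). The Cdh20 region, 2140 kb from that cadherin gene, ranged from 339 to 624 over all libraries.

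Named regions at 0 h alone ranged from 171 to 345. The Plod2 region (chr9:92930482-92931015, 388 kb from the start of this lysyl hydroxylase gene) had values of 345 and 251 at 0 h, and the region 15.0 kb from the 5930422O12Rik start 231 and 199. The Slco6d1 region had 255 and 180, the Pdzrn4 region 179 and 210, and the Ghitm region 175 and 171. None of these 5 had a peak in any later library. At 120 h alone, the Frmd8 region (chr19:5823349-5824042) reached 247 and 192, the Ptpru region (chr4:131625335-131625784) 273 and 138, and the Azin1 region 226 and 131. The Gm21798 region reached 217 and 120 and the region 57.7 kb from Zfp423, a zinc finger factor gene, 131 and 107. In each of the 5 the first 120 h replicate was the higher.

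The 5 largest rises relative to the median region also rose as deposited. The Dio3 region (chr12:110202235-110202614, 76.6 kb from the start of the thyroid hormone deiodinase gene Dio3) had values of 41 and 49 at 0 h, 137 and 137 by 18 h, then 122 and 150 by 48 h and finally 222 and 143 by 120 h. All 6 later values were above both 0 h values, and the rise was in place at 18 h. At 120 h it was 2.88 ± 0.20 relative to the median region (SE, limma adjusted p = 1.65e-05) and 1.99 as deposited. The Krtap20-2 region (chr16:89293794-89294174) had 85 and 70 at 0 h, 233 and 243 by 18 h and finally 342 and 261 by 120 h. The Lrrc7 region (chr3:158964226-158964604) and the E130114P18Rik region (chr4:97488573-97488953) had the same form, with 0 h values of 95 and 54 and of 88 and 54, and 18 h values of 191 and 188 and of 141 and 161. These 4 were of nearly equal width, 379 to 381 bp. The Dtwd2 region (chr18:49651950-49652380) rose later as deposited. It had 68 and 49 at 0 h, 70 to 103 at 18 and 48 h, and 244 and 183 at 120 h, and it holds the DMRT1 motif. Relative to the median region it had risen by 1.61 at 18 h (limma adjusted p = 0.00487), 1.95 at 48 h (0.000785) and 2.76 ± 0.26 (SE) at 120 h (4.23e-05).

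The 5 largest falls took different times. The Mtap region (chr4:89014521-89014978), 83.0% of it masked as repeat, had values of 386 and 467 at 0 h, 52 and 91 by 18 h, then 47 and 63 by 48 h and finally 42 and 43 by 120 h. Most of its loss was in place at 18 h, with a relative fall of -1.37 ± 0.25 then and -2.43 ± 0.25 at 120 h (SE, limma adjusted p = 0.0124 and 5.1e-05). The region 101 kb from Dazl, which encodes a germ cell RNA-binding protein, lies at chr17:50394589-50395206 and overlaps the non-coding gene AC060761.1. Its values were 598 and 540 at 0 h, 140 and 183 by 18 h, then 77 and 97 by 48 h and finally 88 and 37 by 120 h. Relative to the median region this was -0.57 at 18 h (limma adjusted p = 0.309), -1.32 at 48 h (0.00629) and -2.43 at 120 h (4.47e-05). The Ncam1 region (chr9:49873483-49874092), 74.9 kb from the start of this cell adhesion gene, fell from 533 and 449 before RA to 63 and 91 by 48 h and 74 and 35 by 120 h. The Gm26897 region (chr5:111643957-111644826) fell from 1111 and 1127 to 156 and 87 at 120 h, and the Suds3 region (chr5:116963005-116963596) from 657 and 633 to 102 and 55. Of the 5 windows, all but that of the Dazl region hold the NF-Y motif.

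**Figure D4:**
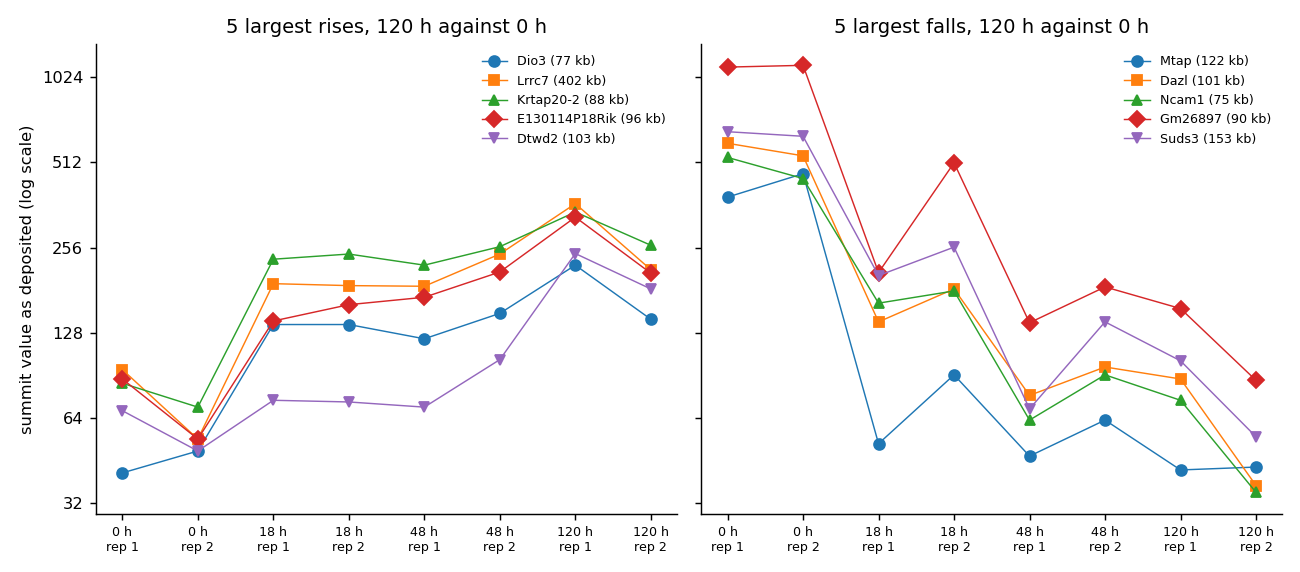
Summit values as deposited (log axis) in the 8 libraries for the 5 unassigned regions with the largest rise (left) and the 5 with the largest fall (right) at 120 h against 0 h, named by the nearest protein-coding gene and its distance. Points are single libraries. In all 5 rises the later values lie above both 0 h values. The Dtwd2 region has 68 and 49 at 0 h, lies between 70 and 103 at 18 and 48 h, and reaches 244 and 183 at 120 h.

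Among unassigned regions, the DMRT1 motif was more frequent in those that stayed open and most frequent in those found at 120 h alone. In the 300 bases around the highest summit, both strands read, ACANTGT was found in 5508 unassigned regions (20.4%), in 16.4% of other regions and in 17.6% of all regions. Among unassigned regions it was in 16.0% of those at 0 h only, in 24.5% of those at 0 and 18 h, in 32.2% of those at 0, 18 and 48 h, and in 36.0% of those at all 4 timepoints. Regions at 120 h only held it in 175 of 369 cases (47.4%). The 51 unassigned regions at 18, 48 and 120 h but not at 0 h held it in 17.6%. In other regions the share also climbed, from 15.1% at 0 h only to 19.4% at 0 and 18 h and 26.6% at 0, 18 and 48 h. It was 11.4% in other regions at all 4 timepoints and 37.3% in those at 120 h only. There are 23 other palindromes of the same form and base composition, and their shares in the unassigned regions at 120 h only had a median of 7.32% and a range of 1.90% to 26.6%. In those at 0 h only their median was 6.47%. At least 2 matches were in 10.8% of regions at 120 h only, 9.68% at all 4 timepoints and 1.90% at 0 h only. The matches were densest near the summit, with 10.8 per 100 regions in the densest 20 bp at 120 h only and 2.37 at 0 h only.

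By library, 20.5% and 19.6% of the unassigned regions with a peak held ACANTGT at 0 h, 29.9% and 27.1% by 18 h, then 31.1% and 29.4% by 48 h and finally 33.4% and 33.6% by 120 h. All later libraries were above both 0 h libraries. Means were 20.1% ± 0.656 (SD, n = 2) and 30.8% ± 2.51 (SD, n = 6), with an exact permutation p of 0.0714, the smallest possible (adjusted 0.0952). This comparison was chosen after the data were seen. In other regions the share was 15.6% and 14.6% at 0 h and 14.0% to 18.7% later. The 0 h libraries had many more and lower peaks. With the 3609 highest unassigned regions of every library, the shares were 30.5% and 28.0% at 0 h, 34.1% and 32.2% by 18 h, then 33.4% and 34.4% by 48 h and finally 40.1% and 33.6% by 120 h. Both 0 h libraries were still the lowest, by a smaller margin.

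**Figure D5:**
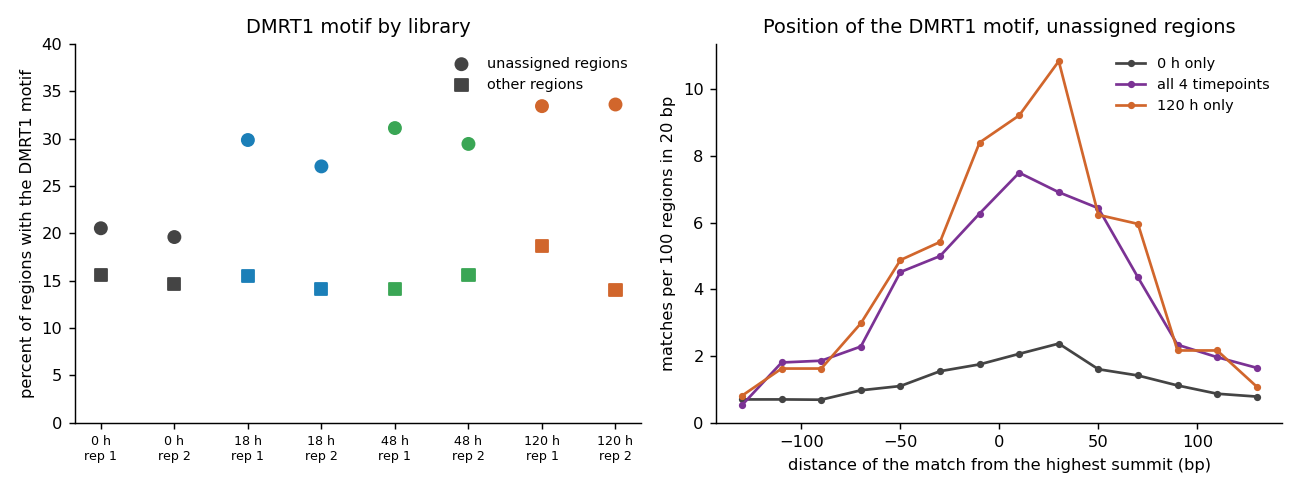
Left, percent of unassigned (circles) and other regions (squares) with a peak in each library that hold ACANTGT within 150 bp of the summit, coloured by timepoint. Right, matches per 100 unassigned regions in bins of 20 bp around the highest summit, for regions at 0 h only, at all 4 timepoints and at 120 h only. The motif is in 19.6% and 20.5% of regions at 0 h and in 27.1% to 33.6% later.

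Of 17 motifs searched, NF-Y had the largest difference in median change at 120 h between shared unassigned regions with and without it, and the change was downward. CCAATCA was in 228 of the 1881 shared unassigned regions (12.1%), a share close to the 11.8% of all regions open at all 4 timepoints, and in 7.07% of all regions. At 120 h 125 of the 228 were lower relative to the median region (54.8%), against 28.7% of those without it, and 14 were higher. Their median log2 change was -0.74, and that of the rest -0.27. In single libraries their median height stood above that of the rest by 0.53 and 0.56 before RA, 0.19 and 0.32 by 18 h, then 0.09 and 0.15 by 48 h, and it was below at 120 h (-0.10 and -0.06). Without regions that have sequence copies, the differences were 0.29 and 0.43 before RA and 0.08 and 0.20 by 120 h. Regions with ACANTGT had a median change of -0.12 at 120 h and those without it -0.39. Of the 678 with it 117 were higher (17.3%, against 11.4% of those without) and 170 lower (25.1%, against 35.7%). In single libraries their median height differed from that of the rest by 0.05 and -0.12 before RA and 0.17 and 0.05 by 18 h. The difference was then 0.08 and 0.16 by 48 h and 0.27 and 0.02 by 120 h. Replicate 2 at 120 h thus lay between the 0 h libraries. The CTCF motif was in 9.70% of unassigned regions at 0 h only, 6.96% of those at all 4 timepoints and 2.71% of those at 120 h only, against 6.89% of all regions. In other regions of these patterns the shares fell as well, at 8.98%, 4.45% and 3.54%. The retinoic acid response element (direct repeats 5 bases apart) was in 0.976% of unassigned regions and 0.947% of all regions. A match describes letters in a window and not binding.

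Many unassigned regions resembled each other in sequence. Of the 27037, 3920 (14.5%) matched another region at 80% identity or more over at least 150 bp of the 300-base window, against 6.48% of other regions. Among themselves 3461 fell into 329 groups, 26 of which had 20 or more members. The largest had 575 members on 20 chromosomes, of which 243 were at 0 h only (42.3%, beside 43.3% of all unassigned regions). The peak counts of groups below stand beside a general drop. Of all unassigned regions, 22175 and 20160 had a peak in the 0 h libraries and 3609 to 8003 in the later ones. The group of 181 that includes the Olfr987 and Lao1 regions held the NF-Y motif in 86.7% and a forkhead motif (GTAAACA) in 64.6% of members. It had 171 and 169 peaks in the 0 h libraries, 65 and 80 by 18 h, then 42 and 80 by 48 h and finally 55 and 24 by 120 h. Of its 22 members open in every library 19 were lower at 120 h, with a median log2 change of -1.26 relative to the median region and a range of -2.21 to 0.23. The Olfr987 region (chr2:85266611-85267211) went from 539 and 641 before RA to 206 and 129 at 120 h (-0.96 ± 0.19, SE, limma adjusted p = 0.00277). In the group of 142, 10 of 11 were lower, with a median of -1.61. In a group of 110 the median was -0.29, with 4 lower and 2 higher of 13. A group of 94, of which no member could be tested, had 93 and 37 peaks at 0 h and 1 peak in all later libraries together. In all, shared unassigned regions with a copy were lower at 120 h in 115 of 204 cases (56.4%) and those without in 28.9%. Reads from near-identical copies can be placed wrongly, and how many were was not tested.

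Genes of spermatogonial stages had unassigned regions around them in differing numbers. The nearest start belonged to 1 of 28 genes of undifferentiated spermatogonia in 133 cases, over 19 of the genes, with Foxo1 (18), Enc1 (15), Eomes (13) and Id4 (12), an inhibitor of differentiation expressed in stem cells, having the most. Of the 133, 63 were at 0 h only (47.4%) and 13 at all 4 timepoints (9.77%), beside 43.3% and 6.96% of all unassigned regions. Of those 13, 3 were lower and 2 higher at 120 h relative to the median region, beside 31.9% and 13.5% of all shared unassigned regions. The Sall4 region (chr2:168807596-168808206, 40.7 kb from the start of this stem cell factor gene) had 743 and 793 at 0 h, 268 and 275 by 18 h, then 245 and 299 by 48 h and finally 632 and 335 by 120 h. Its relative change at 120 h was 0.15 ± 0.21 (SE, limma adjusted p = 0.579). The region at chr13:97308355-97308898, 67.5 kb from the Enc1 start, had 702 and 882 before RA and 140 and 73 by 120 h, a fall of -2.07 ± 0.23 (SE, limma adjusted p = 8.69e-05). The second Enc1 region, 16.2 kb away, had 242 and 275 before RA and 259 and 113 by 120 h, a change of 0.30 ± 0.23 (adjusted p = 0.31 in limma).

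Genes of differentiating spermatogonia had fewer such regions. Only 7 of 16 genes had any, 30 regions in all, of which 19 were at 0 h only (63.3%) and 1 at all 4 timepoints (3.33%). Of all unassigned regions 43.3% and 6.96% were. Kit, the receptor that marks differentiation, had 10, of which 7 were at 0 h only, and Dmrt1 had 7, of which 4 were. Stra8 had none. The region shared by all timepoints lay 15.0 kb from the start of the DNA methyltransferase gene Dnmt3a, with 187 and 250 before RA and 158 and 134 by 120 h. Near Dmrtb1, which encodes a factor of late spermatogonia, the region at 17.3 kb had 151 and 138 before RA and 62 and 51 by 120 h, and the one at 53.8 kb 90 and 97 at 0 h and 74 in a single 120 h library. None of the 30 was at 120 h only, beside 1.36% of all unassigned regions. The 19 genes of the retinoid pathway had 35 regions, with 9 near Aldh1a3, an RA-synthesising enzyme gene, and 5 near Cyp26b1, an RA-degrading enzyme gene. Of the 35, 12 were at 0 h only (34.3%) and 3 at all 4 timepoints (8.57%), beside the same 43.3% and 6.96%. None of the 3 passed the test at 120 h, whereas of all unassigned regions tested 31.9% were lower and 13.5% higher.

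The remaining lists are read against all unassigned regions, of which 43.3% were at 0 h only, and against those tested, of which 31.9% were lower and 13.5% higher at 120 h. Germ cell genes had 45 regions, 20 at 0 h only (44.4%), and 3 of the 6 tested were lower at 120 h. Markers of somatic testis cells had 53, 23 of them at 0 h only (43.4%), with 21 near Sox9, a Sertoli cell factor gene. Developmental transcription factor genes had the most, 689 regions near 63 of 68 genes at a median of 167 kb, with Tbx3 (51), Zfhx3 (45), Nr2f2 (34) and Pou3f3 (31) first. Of these 311 were at 0 h only (45.1%), 41 at all 4 timepoints (5.95%) and 7 at 120 h only, and 16 of the 41 were lower and 6 higher at 120 h, with a median change of -0.31, as in all unassigned regions tested. The highest was the Pou3f3 region (chr1:42720744-42721335), with 337 and 419 at 0 h, 264 and 234 by 18 h, then 115 and 198 by 48 h and finally 270 and 112 by 120 h. The Zfhx3 region, inside that gene, had 258 and 307 before RA and 142 and 56 by 120 h, and the Bcl11b region 242 and 254 and then 198 and 134. None of these 3 passed the test relative to the median region at 120 h (limma adjusted p = 0.526, 0.100 and 0.266).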

How the data were processed

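ATAC-seq was performed on eGFP-positive germ cells in 8 libraries. The authors aligned reads to mm10 with BWA (0.7.12 per the submitters' processing notes), kept unique non-duplicate pairs, extended tags to 200 bp, binned them in 32 nt, normalised libraries to 1 tag number, called peaks per library with MACS2 2.1.0 without a control, removed blacklisted peaks and assigned genes within 10 kb. The deposited values used here are tag coverage, a signal, at the summit and averaged over each peak. Read counts per region were not analysed here, so no count test or counting interval was possible and depth behind a peak is known only as its signal. Whether peaks were called before or after that normalisation is not given in the sources used here. Merged region lists and track files were not used.

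Peaks of 21 chromosomes were merged by 1 bp. Coordinates are GRCm38, 1-based. The members and lists were chosen with earlier results of these data known. Log2 summit values of regions open in every library were fitted with limma 3.58.1 (R 4.3.3, 4 groups, no block, Benjamini-Hochberg over 15536 regions, threshold 0.05), as deposited and after each library was centred on its median region. On simulated data for 120 h against 0 h over these 15536 regions, calls were made for 5.97% of regions changed by 1 on the log2 scale, 68.7% by 2 and 95.5% by 3. Only 67, 67 and 66 regions were changed by these sizes, with errors drawn independently for each region. In the fit as deposited, 44.8% of all regions were called lower at 120 h. There the Pou3f3 region was called at a change of -1.11 (limma adjusted p = 0.00865). The simulated shares therefore do not give the rate of calls in the fit as deposited. Whether they hold for the centred fit was not tested. The median standard error in limma was 0.372 as deposited and 0.222 after centring. After centring a change below 1 could be called, as in the Olfr987 region (-0.96 at 120 h, limma adjusted p = 0.00277). Library values were compared with exact two-sided permutation tests, smaller tail doubled. Motifs, masking and GC came from the RefSeq GRCm38 sequence, genes from GENCODE M21, and sequence copies from blastn 2.17.0 (80% identity over 150 bp).

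Named regions are the 5 highest in all libraries, the 5 strongest at 0 h alone and at 120 h alone, the 5 largest rises and falls at 120 h, the longest chains, and the 3 highest near each of 3 gene lists. Regions of sequence copies, and others said to be chosen after their values were seen, were added. Of the 5 highest, 1 region is not reported here.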

Additional observations from a re-analysis of the deposited data

How the results depend on the processing

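With 2 libraries per timepoint the exact tests cannot pass 0.05, and heights below the calling limit are not known, so heights describe only regions open in every library. Leaving out a library leaves 1 sample in an arm, assumed to vary like the other groups. The 10 named rises and falls kept direction and side of the threshold in all 150 alternatives run. They were chosen as the largest changes past the threshold in these same data, so the choice favoured this outcome. With equal numbers of highest peaks the ratio of 3.58 fell to 1.12 and the share difference of 11.4 points to 1.99 (exact permutation p = 0.143 for both), and the DMRT1 difference went from -10.7 to -5.38 points. The balance of lower and higher calls turned from 48 to 120 h as deposited without 120 h replicate 1 (53 and 25), and at 48 h under quantile normalization. Alternatives on the DMRT1 share were chosen after seeing the data. The cause of the changes below was not tested.

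Of the 11708 regions at 0 h only, 768 were left with equal numbers of highest peaks and 7317 beyond 10000 bp of GENCODE genes. The 1881 at all 4 timepoints became 960 with summits of at least 50, 1058 beyond 10000 bp and 4456 with a peak in either replicate. The 369 at 120 h only became 211, 607 (equal numbers), 215 and 1155. The 9188 at no timepoint became 5752, 3424 and 5694.

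As deposited, regions with a peak in the 4 libraries compared gave 4056 lower at 18 h, 3183 lower at 48 h, and 3 lower and 112 higher from 48 to 120 h. Beyond 10000 bp there were 869 lower at 18 h, 892 by 48 h, 691 lower and 28 higher by 120 h, then 5 and 88 from 48 to 120 h. Quantile normalization gave 11 lower and 41 higher by 18 h, 123 and 100 by 48 h, 386 and 191 by 120 h, then 14 and 17 from 48 to 120 h. Centring gave 13 and 68, 92 and 146, 600 and 254, and 255 and 68. From 48 to 120 h the mean signal gave 5 lower, and fitting the libraries compared alone gave 2 lower and 85 higher.

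On the centred scale, the mean signal gave 21 lower at 18 h. Regions in the 4 libraries compared gave 50 lower and 222 higher by 18 h, 196 and 356 by 48 h, then 476 higher by 120 h. Beyond 10000 bp there were 57 and 93 by 48 h, 327 and 142 by 120 h, then 143 and 39 from 48 to 120 h. Quantile normalization gave 41 higher at 18 h, 386 lower at 120 h, and 14 and 17 from 48 to 120 h.

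Replicate numbers share only a number, since the correlations of deviations between timepoints ranged from -0.22 to 0.25. With a replicate block, 4 in place of 9 regions were lower from 48 to 120 h as deposited, and at 120 h 626 were lower and 266 higher than the median region's change. The other counts stayed within 1.5 times.

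Leaving out each library in turn gave ratios of 3.32 to 3.86, share differences of 10.6 to 12.1 points, height differences of 0.06 to 0.25 and DMRT1 differences of -11.4 to -10.1 points. Regions numbered 10017 to 16464 at 0 h only, 1892 to 2820 at all 4 timepoints, 271 to 1605 at 120 h only (the highest without 120 h replicate 2) and 4432 (without 0 h replicate 2) to 9089 at none. As deposited, 1136 to 1661 were lower and 9 to 24 higher by 18 h, 1284 to 1679 and 12 to 25 by 48 h, 733 to 1520 and 21 to 73 by 120 h (733 without 120 h replicate 2), and 0 to 53 and 6 to 690 from 48 to 120 h. After centring on the median region, the ranges were 2 to 18 and 19 to 85, 11 to 110 and 60 to 158, 349 to 602 and 175 to 249, and 0 to 294 and 0 to 71. As deposited, the 0 lower from 48 to 120 h came without 48 h replicate 1 or 2 in limma (49 and 1 at an unadjusted p under 0.05).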
